A study of Mus musculus with 6 samples.

Results

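The transcriptome of CD34- KSL cells was described in the 3 libraries labelled EGFR-WT, out of 6 bulk RNA libraries in the study. KSL cells are bone marrow cells that lack lineage antigens and carry the receptor Kit and the antigen Sca-1 on their surface, and their CD34- fraction is rich in haematopoietic stem cells (HSC) that repopulate blood for long times. All 3 libraries came from mice with the genotype Tal1-tTA+/TRE-EGFR-tr+. Tal1-tTA places an activator that doxycycline switches off under control of Tal1, a gene of blood stem and progenitor cells, and TRE-EGFR-tr is its target and encodes the receptor of epidermal growth factor (EGFR) without its cytoplasmic kinase domain. Drinking water held 0.2 g/L doxycycline, under which only wild-type EGFR was made. Every library described here therefore came from mice with both transgenes and under doxycycline, and mice without either were not analysed here. The members were the 3 libraries themselves, chosen by their label and treatment, and no comparison was made with the 3 EGFR-DN libraries. The labels give no age or sex and do not say whether each replicate was a separate animal or a pool.

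HSC divide rarely, renew themselves and give rise to all blood lineages. Their state is held by a set of transcription factors that includes Gata2, Meis1, Hlf and Mecom, and by signals through receptors such as Kit, the receptor of stem cell factor. Single stem and progenitor cells often carry low levels of transcripts of several blood lineages before they commit to any of them.

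Levels are given as counts per 1000000 counts of a library (CPM), with 3 values standing in the order of replicates 1, 2 and 3. Because a long transcript gives more reads, levels of different genes are compared only as CPM per kilobase (kb) of transcript, given as mean ± SD with n = 3. A gene is termed present where it reached 1 CPM in each of the 3 libraries. The libraries held 29986735, 36032504 and 24428225 counts, so a count of 3 corresponded to 0.0833 CPM in the deepest and 0.123 CPM in the shallowest. Genes with 3 counts or fewer in every library are termed not detected at this depth. With 1 group there is no contrast and no test, and every comparison below sets values against the spread between the libraries.

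The 6 genes used to check the cell type were all present. Kit, the receptor by which the cells were sorted, was at 846, 818 and 800.1 CPM, or 157 ± 4.38 CPM per kb, which placed it at rank 341 of 11522 protein-coding genes. Meis1, a homeodomain factor of stem cells, was at 382, 320.4 and 312 CPM (103 ± 11.6 per kb). Gata2, a zinc finger factor needed for HSC maintenance, was at 302, 257 and 239.8 CPM (79.5 ± 9.63 per kb). All 3 means lay above the 90th percentile of present protein-coding genes, which was 62.6 CPM per kb, with a median of 11.7. Hlf, a leucine zipper factor that marks HSC, was at 253, 177 and 237 CPM (39.4 ± 7.04 per kb). Procr (EPCR), a receptor of protein C by which HSC can be isolated, was at 78.7, 44.8 and 52.3 CPM (36.7 ± 11.1 per kb). Mecom, the gene of the factor EVI1, was at 161, 99.1 and 119 CPM (28.8 ± 7.17 per kb). The order per kb was Kit, Meis1, Gata2, Hlf, Procr and Mecom. Each of Kit, Meis1 and Gata2 was separated from the next gene in every library, whereas the ranges of Hlf, Procr and Mecom overlapped. Replicate 1 gave the highest value for all 6.

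Upstream sequence of these marker genes is shown because some ETS factors, which bind CGGAAG, were abundant, among them Elf1 and Fli1. RefSeq gives windows for all 6 genes, and 3 of them hold the 6 letters CGGAAG on either strand in the 250 bases before a start site. Coordinates are those of RefSeq on GRCm38.p6, an earlier build than the one named for the counts. The lines run 5′ to 3′ along the strand of the gene, and capitals mark CGGAAG or its reverse complement. The Meis1 window is chr11:19018970-19019219 on the minus strand, the Procr window is chr2:155750967-155751216 on the plus strand, and the Mecom window, before the downstream of its 2 start sites, is chr3:30013205-30013454 on the minus strand.
Meis1: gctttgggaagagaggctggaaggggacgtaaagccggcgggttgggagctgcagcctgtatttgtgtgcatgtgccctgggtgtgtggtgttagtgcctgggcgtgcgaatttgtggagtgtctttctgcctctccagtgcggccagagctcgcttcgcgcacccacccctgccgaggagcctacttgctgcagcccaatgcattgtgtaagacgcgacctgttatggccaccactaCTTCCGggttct
Procr: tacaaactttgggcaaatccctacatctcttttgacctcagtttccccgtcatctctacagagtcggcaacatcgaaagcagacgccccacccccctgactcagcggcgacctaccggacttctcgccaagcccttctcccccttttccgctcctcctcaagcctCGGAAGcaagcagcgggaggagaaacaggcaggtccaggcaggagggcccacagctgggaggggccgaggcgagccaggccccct
Mecom: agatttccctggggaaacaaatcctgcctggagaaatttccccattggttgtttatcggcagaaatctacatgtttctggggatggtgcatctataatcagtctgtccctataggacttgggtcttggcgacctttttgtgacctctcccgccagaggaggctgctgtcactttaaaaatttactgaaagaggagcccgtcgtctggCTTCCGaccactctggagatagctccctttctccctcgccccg
The same 6 letters occurred in 29.6% of the 9403 present protein-coding genes that have a window (81.3% of them have 1). Of the 1000 highest per kb, 980 were compared, and 35.1% of the 807 with a window (82.3%) held the letters. Of the 100 highest per kb, 69 were compared once ribosomal protein genes were left out. Among the 56 of these with a window (81.2%) the share was 26.8%, under that of all present genes, so the share did not rise steadily with level. Among all 27025 genes with a RefSeq window, not limited to protein-coding genes or to those counted here, the share was 15.3%. Among all 32851 windows of this length it was 13.6%. A match describes the letters only, and a gene with several start sites counts once if any window holds a match. For a comparison with a set of genes, at least 80% of the set had to have a window. The 5409 protein-coding genes that were not detected (79.5%) and the set of 985 from the 1000 lowest present genes per kb (75.9%) missed that minimum. The check is void for them.

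The targeted receptor was close to the limit of detection. Egfr had 6 counts in each library, or 0.2001, 0.167 and 0.246 CPM. All 3 libraries gave the same number of counts, above the limit of 3 counts and far under the 1 CPM that was asked of a present gene.

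The 3 libraries agreed closely across most genes. Replicate 1 stood apart, most strongly in immunoglobulin transcripts but in other genes too. Of 50763 gene symbols in the table, 14988 were present, 26328 were not detected at this depth, among them 20690 with 0 counts in all 3 libraries, and 9447 lay between. Present genes included 11586 of 20029 protein-coding genes, 969 long non-coding RNA genes and 1776 pseudogenes. Across the present genes, log2(CPM + 1) correlated at r = 0.988 between replicates 1 and 2, 0.987 between 1 and 3 and 0.992 between 2 and 3 (Spearman's rho 0.989, 0.988 and 0.993). These correlations run across genes, which share a library and are not independent replicates. The share of present genes within 1.25-fold of each other was 79.5%, 78.0% and 83.2% for the same pairs. More than 2-fold apart were 304, 317 and 150 genes. The closest pair was thus replicates 2 and 3 on each measure. Chi-square per degree of freedom was 54.0, 52.8 and 14.6, so each pair differed by far more than counting error and no library was a copy of another. This value is a mean over genes in which abundant genes that differ widely, such as those of immunoglobulins, weigh most. It does not describe a typical gene.

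The coefficient of variation (CV, the SD over the mean of the 3 libraries) of present genes had a median of 8.18%, and 59.7% of them were under 10%. It fell with abundance, from a median of 19.2% at 1 to 3 CPM to 6.02% at 30 to 100 CPM and 4.97% at 100 to 300 CPM. Counting error alone would give medians of 12.95%, 2.52% and 1.52% in those ranges. Above 300 CPM the median was 5.13%, with counting error at 0.852%, so the spread of abundant genes was several times the counting error. The biological coefficient of variation that edgeR estimated for the group was 0.136. Without mitochondrial, rRNA-like, ribosomal protein and immunoglobulin genes it was 0.121. In simulated libraries with a set value of 0.08, that estimate was 0.0794, but it read 0.130 when 200 of 14985 genes were given a wide spread of 0.8. The median CV is therefore the value used here for a typical gene.

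**Figure D1:**
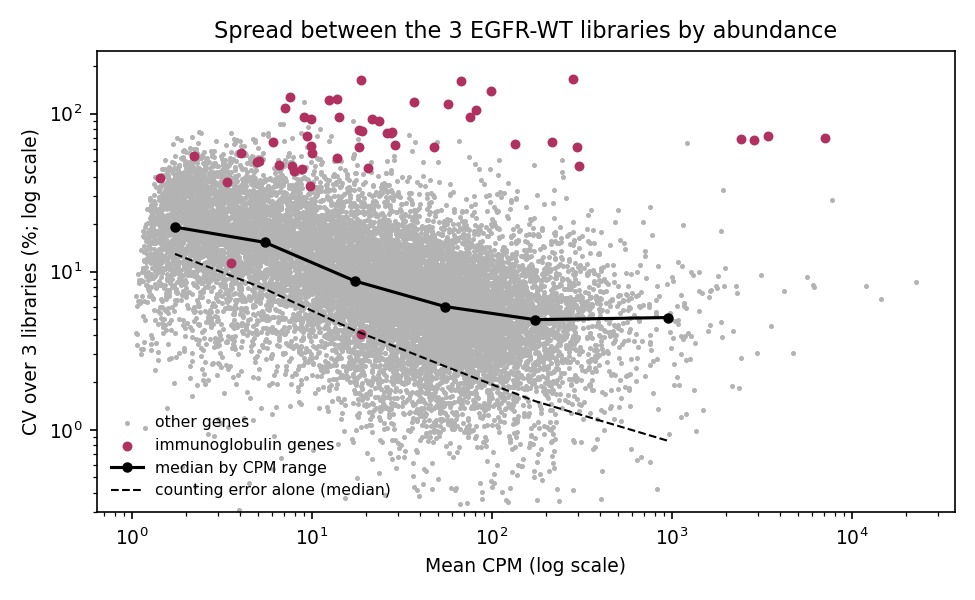
Each point is a present gene, with its mean CPM on the x axis and its CV over the 3 EGFR-WT libraries in percent on the y axis, both on log scales. The solid line joins the median CV of each CPM range, from 19.2% at 1 to 3 CPM to 5.13% above 300 CPM, the dashed line gives the median counting error, and immunoglobulin genes (red) lie above the solid line with few exceptions.

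Genes with a wide spread were mostly immunoglobulin genes. Among 10611 genes with a mean of at least 10 CPM, 72 had a CV above 50%, and 45 of these were immunoglobulin genes. The 398 immunoglobulin symbols took 0.378% of counts in replicate 1, 2.56% in replicate 2 and 2.79% in replicate 3. Ighm, the constant region of IgM heavy chains, was at 592, 4406 and 5173 CPM. Igkc, the constant region of kappa light chains, was at 481, 3309 and 3416 CPM, and Jchain, which joins IgM or IgA monomers in secreted antibody, was at 298, 1648 and 1690.3 CPM. Replicate 1 was lowest and replicates 2 and 3 were close to each other for each of these 3 genes. Igha, the constant region of IgA, showed the same order with 156, 315 and 439.8 CPM.

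Some variable segments differed between the libraries by far more than Ighm and Igkc. Each antibody-forming clone uses 1 rearranged V segment for its heavy and 1 for its light chain. Igkv12-46 was at 0.608, 1627 and 4.43 CPM and made up 56.6% of all Igkv counts in replicate 2. Igkv1-135 was at 2.49, 25.5 and 814 CPM and made up 28.1% of Igkv counts in replicate 3. In replicate 1 the leading kappa segment was Igkv14-126, with 23.4% of Igkv counts, and this segment was at 86.5, 412 and 387 CPM. A different kappa segment thus led in each library. Among heavy chain segments, Ighv1-5 was at 0, 3.099 and 206 CPM and led in replicate 3 with 24.5% of Ighv counts. Ighv3-6 was at 1.22, 191 and 7.898 CPM and led in replicate 2 with 26.7%. Ighv11-2 led in replicate 1 with 30.7% and was at 35.6, 189 and 179.8 CPM. Ighg3, the IgG3 constant region, was at 0.137, 0.364 and 83.5 CPM, and was thus high in replicate 3 alone. Near-identical V segments may share reads, so values of single segments are uncertain.

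Most listed genes of B cells and plasma cells were lowest in replicate 1, as were Ighm and Igkc. On the list of 17 B cell and plasma cell genes, 10 were present. Without Ighm, Igkc and Jchain, which made up nearly all of the level of the list, the other 14 summed to 48.8 CPM in replicate 1, 106 in replicate 2 and 132 in replicate 3. Mzb1, an endoplasmic reticulum protein of plasma and marginal zone B cells, was at 5.84, 43.5 and 53.99 CPM. Pou2af1, a transcriptional coactivator of B cells, was at 2.801, 14.6 and 20.9 CPM. Of these 14 genes, 7 were present, and 6 of the 7 were lowest in replicate 1, against 32.9% of all present genes. The exception was Cd79b, a chain of the B cell receptor complex, at 32.6, 27.1 and 32.7 CPM. For 3 genes named after their values were seen, replicate 1 was also lowest, with Prdm1 at 1.03, 7.19 and 8.76, Slamf7 at 1.77, 15.01 and 15.1 and Sdc1 at 8.24, 21.3 and 23.8 CPM. Ms4a1 (CD20), a surface antigen of B cells, was lower at 0.233, 1.14 and 1.84 CPM, and Pax5, the factor of B cell identity, was not detected at this depth. In bulk RNA, fewer cells of a type and less RNA per cell cannot be told apart, and the part that such cells play in any level below was not tested.

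The most abundant transcripts were those of ribosomes, mitochondria, general cell upkeep and, in replicates 2 and 3, immunoglobulins. Of all counts, 25% fell on 158 genes, 50% on 1113 genes, 75% on 3584 genes and 90% on 6744 genes. Without division by length, the symbols that took most counts were the rRNA-like genes Gm26917 (24219, 20444 and 23089 CPM) and Rn18s-rs5 (15543, 13661 and 14216 CPM), which carry ribosomal RNA sequence. The 8 rRNA-like symbols took 6.15%, 5.06% and 5.52% of counts. The 13 protein-coding genes of the mitochondrial genome took 4.42%, 3.94% and 4.28%. COX3, a subunit of cytochrome oxidase, was the highest of them in counts at 12743, 10856 and 12143 CPM. Igk, the symbol of the kappa light chain locus, stood at rank 5 by mean with 1305, 9726 and 10076 CPM, and Ighm at rank 12. The rRNA-like and mitochondrial shares varied little between libraries next to the immunoglobulin share, which was several times lower in replicate 1 than in the others.

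**Figure D2:**
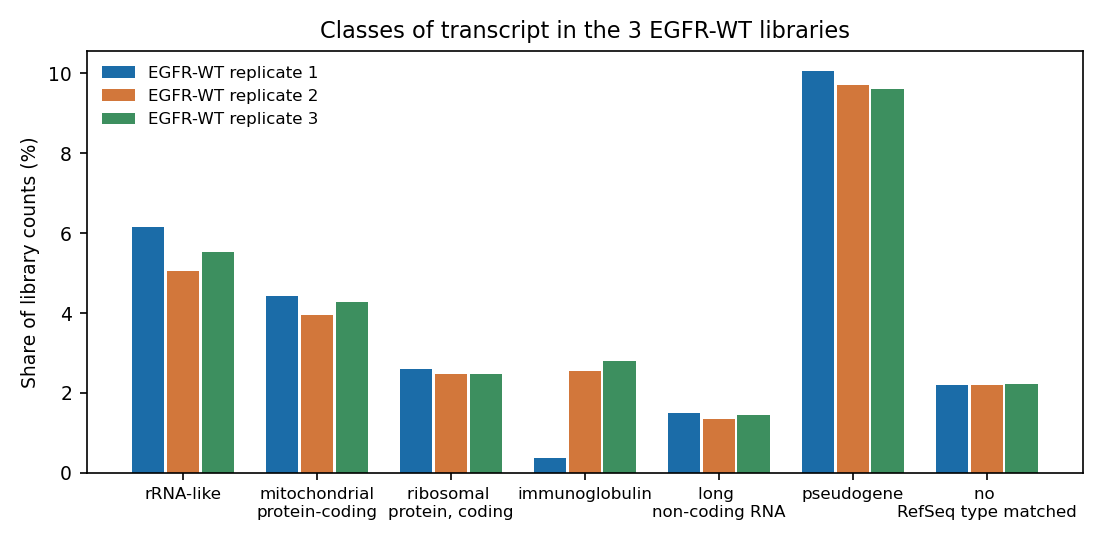
Bars give the share of library counts in percent that fell on each class of transcript in each of the 3 EGFR-WT libraries. Pseudogenes took 10.1%, 9.71% and 9.61%, rRNA-like genes 5.06% to 6.15%, and only the immunoglobulin bar of replicate 1 (0.378%) stands far from those of the other libraries. Other protein-coding genes, not drawn, took 72.6%, 72.6% and 71.6%.

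Symbols classed as pseudogenes took 10.1%, 9.71% and 9.61% of counts. Ubb-ps (3003, 3009 and 2848 CPM), Gm15427 (2479, 2346 and 2446 CPM) and Rpl3-ps1 (2469, 2246 and 2102 CPM) led them. Processed pseudogenes are near copies of their parent transcripts, so the counting may have split reads between a gene and its copies, and levels of ribosomal protein genes are uncertain for that reason. Ribosomal protein genes proper took 2.61%, 2.47% and 2.46%, and 5.42%, 5.04% and 4.99% when symbols with a ribosomal protein name and its pseudogene forms were counted together.

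Per kb, B2m, the light chain of major histocompatibility complex (MHC) class I, stood highest at 2268 ± 184 CPM per kb (1904, 2127 and 1821 CPM). Eef1a1, the elongation factor that delivers aminoacyl-tRNA to the ribosome, followed among non-ribosomal genes at 1967 ± 89.6, and Ptma, the chromatin protein prothymosin alpha, at 1785 ± 75.2. Ribosomal protein genes filled most of the ranks between and after them, among them Rpl32 at 2168 ± 65.4 and Rps3a1 at 1793 ± 146. The ranges of B2m and Rpl32 overlapped, so the top rank is not settled. Genes of the actin system came next, with Tmsb4x, which binds actin monomers, at 1397 ± 159.9, Actb, cytoplasmic beta actin, at 1227 ± 22.5, and Pfn1, profilin, at 1203 ± 59.1. Gpx1, a glutathione peroxidase, reached 920.0 ± 30.2 and Npm1, a nucleolar chaperone, 857 ± 10.8 CPM per kb. Most of these genes varied by under 10% between libraries. Jchain also entered the first 25 genes at 870.1 ± 569 CPM per kb, and for that gene the mean describes no single library.

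2 of the most abundant genes per kb are less general. Car2, carbonic anhydrase 2, was at 2257, 1732 and 1619 CPM, or 1045 ± 190.2 CPM per kb, rank 16. Ifitm2, an interferon-induced membrane protein, was at 652, 685 and 620.4 CPM, or 996 ± 49.1 per kb, rank 17. Its relatives Ifitm3 (758 ± 119.6) and Ifitm1 (431 ± 54.5), both known for higher levels in HSC than in their progeny, were also high.

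Transcripts for surface proteins were found from 208 of 336 listed genes, or 61.9%. The share present differed by family, from 40 of 44 sort and adhesion antigens and 40 of 54 cytokine receptors to 26 of 55 receptor tyrosine kinases, 7 of 23 chemokine receptors and 6 of 24 mature lineage antigens. Over all protein-coding genes in the table, 57.8% were present.

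Among receptor tyrosine kinases, Kit stood far above the rest per kb. Flt3, a cytokine receptor of lymphoid-primed progenitors, was next at 105, 103 and 128 CPM (30.6 ± 3.72 per kb). Tie1, an orphan receptor, was at 128, 126 and 98.6 CPM (28.7 ± 3.98 per kb), and its relative Tek, the angiopoietin receptor that holds HSC in the niche, at 51.3, 56.9 and 46.4 CPM (11.3 ± 1.15 per kb). The ranges of Flt3 and Tie1 overlapped, and both lay above Tek in every library. Igf1r, the receptor of insulin-like growth factor 1, was at 16.3 ± 1.11, and Ryk, a Wnt receptor, at 9.78 ± 2.75 CPM per kb. The next members were Pdgfrb at 5.19 ± 0.979 and Insr, the insulin receptor, at 4.26 ± 0.583. Of the ERBB receptors related to Egfr, Erbb3 was at 6.77, 5.38 and 5.16 CPM, and Erbb2 and Erbb4 had means of 0.0599 and 0.0638 CPM. On the same list 9 kinases such as Alk, Ros1 and Fgfr4 were not detected at this depth.

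Of 54 cytokine receptor chains, 40 were present. Il2rg, the common gamma chain, was at 147, 171 and 182 CPM (99.7 ± 10.6 per kb). It lay above Ifngr1 in every library, and Ifngr1, a chain of the interferon gamma receptor, was at 56.05 ± 2.33. Ifnar2, of the type I interferon receptor, was at 54.1 ± 1.85, Il10rb, shared by the interleukin 10 family, at 45.5 ± 4.31, and Il11ra1, the interleukin 11 receptor, at 39.96 ± 6.78 CPM per kb. Crlf2, the receptor of thymic stromal lymphopoietin, was at 32.3 ± 0.273, and Csf3r, the receptor of granulocyte colony-stimulating factor, at 62.5, 82.1 and 74.6 CPM (20.99 ± 2.83 per kb). Epor, the erythropoietin receptor, was at 17.7, 18.3 and 15.4 CPM (9.73 ± 0.8597 per kb), under the median of all ranked genes. The erythropoietin receptor thus lay far below the common gamma chain in every library. Not detected at this depth were Il17rd, Cntfr, Il13ra2 and Il22ra1.

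Receptors of the tumour necrosis factor family were led by Cd27 at 103, 115.5 and 119 CPM (135 ± 10.1 per kb), a costimulatory receptor that is also found on progenitors. Tnfrsf13b (TACI), a receptor of B cell survival factors, was at 68.4, 68.4 and 71.1 CPM (92.4 ± 2.07 per kb). Its CV was 2.24%, while that of Jchain was 65.3%. Tnfrsf14 was at 70.4 ± 11.1 and the type 1 receptor Tnfrsf1a at 26.3 ± 1.48 CPM per kb. In all, 15 of 25 were present.

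Of the receptors for transforming growth factor beta and bone morphogenetic proteins, 10 of 14 were present. Eng, the accessory receptor endoglin, was highest at 111.7, 109 and 94.3 CPM (30.9 ± 2.76 per kb). The signalling chains Tgfbr1 (14.9 ± 0.663) and Tgfbr2 (10.1 ± 0.352) stood near the median of all ranked genes, and the type I chain Bmpr1a was lower at 27.2, 12.96 and 18.5 CPM (3.28 ± 1.21 per kb). Among 22 Notch, Wnt and Hedgehog receptors, 16 were present. Smo, the Hedgehog signal transducer, was at 15.1 ± 0.746 and Notch2 at 13.6 ± 0.828 CPM per kb, close to each other, while Notch1 was lower at 3.002 ± 0.438. Frizzled receptors were led by Fzd6 at 7.88 ± 0.924 CPM per kb.

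**Figure D3:**
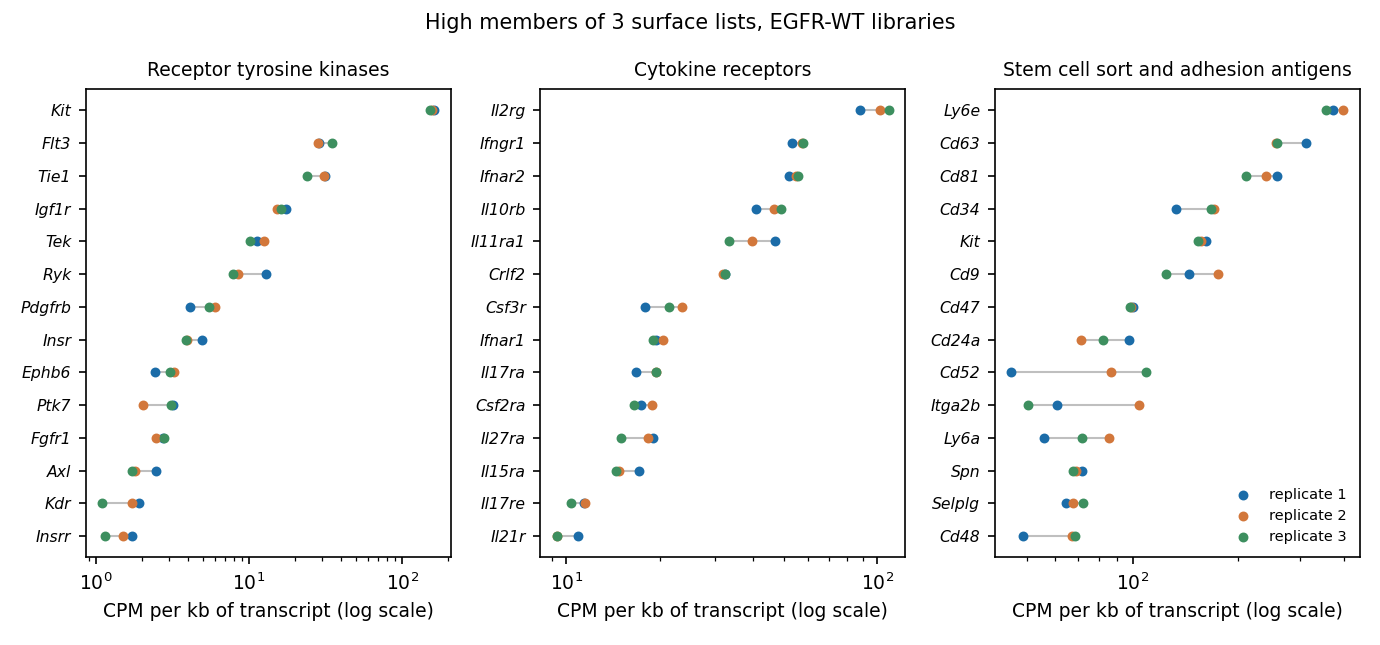
Each row is a gene and each point an EGFR-WT library, placed by its CPM per kb on a log axis. The panels show 14 of the highest present members of the receptor tyrosine kinases, the cytokine receptors and the sort and adhesion antigens. Kit at 157 CPM per kb lies above Flt3 at 30.6, Il2rg at 99.7 above Ifngr1 at 56.05, and the points of Cd52, Itga2b and Ly6a are spread widest on the right.

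Adhesion receptors included 17 of 26 integrin chains. Itgb1, the common beta 1 chain, was at 305, 324 and 288 CPM (80.2 ± 4.62 per kb), and Itga6, its laminin-binding partner, at 244, 229 and 198 CPM (52.9 ± 5.59 per kb). Itga2b (CD41), the platelet integrin chain that also marks some HSC, was at 209, 358 and 173 CPM (71.8 ± 28.5 per kb), with replicate 2 well above the other libraries. Itga4, a chain of the homing receptor VLA-4, was at 15.1 ± 0.678 CPM per kb. Chemokine receptors were scarce. Cxcr4, the receptor of Cxcl12 that keeps HSC in the marrow, was the highest of them at 17.8, 16.5 and 22.1 CPM (10.4 ± 1.60001 per kb), close to the median of all ranked genes.

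G protein-coupled receptors held the most abundant surface receptor on any of the lists. Adgrg1 (GPR56), an adhesion receptor of stem cells, was at 1733, 1588 and 1512 CPM (448 ± 31.2 per kb), above Kit in every library. Adgrl4, an adhesion receptor also known from endothelium, was at 595, 585 and 549.7 CPM (140.4 ± 5.83 per kb). F2r, a thrombin receptor, was at 41.98 ± 6.53, Gpr171 at 36.1 ± 2.46 and Calcrl, a receptor of adrenomedullin, at 26.9 ± 2.02 CPM per kb. In all, 28 of 41 were present. Toll-like receptors were low, with 6 of 12 present and Tlr4, the receptor of lipopolysaccharide, highest at 25.1, 18.6 and 19.7 CPM (5.19 ± 0.861 per kb).

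Among antigens used to sort or describe stem cells, 40 of 44 were present. Ly6e was highest at 804, 857 and 768 CPM (376 ± 20.9 per kb), followed by the tetraspanins Cd63 (275 ± 31.4) and Cd81 (236 ± 24.3). Cd34 itself was at 334, 427 and 419.8 CPM (157 ± 20.8 per kb), and its range overlapped that of Kit. The sort was on CD34 protein at the surface, whereas the libraries measured RNA, and Cd34 transcript was abundant in all 3 libraries. Ly6a (Sca-1), the other antigen of the sort, was at 53.3, 81.7 and 68.3 CPM (70.9 ± 14.9 per kb). Esam was at 46.3 ± 4.85 and Cd48, which long-term HSC carry little of on their surface, at 51.2, 70.9 and 72.4 CPM (61.5 ± 11.2 per kb). Slamf1 (CD150), which marks long-term HSC, was at 36.8, 18.2 and 25.3 CPM (9.94 ± 3.496 per kb). The Slamf1 mean lay under the median of all ranked genes, 11.7 CPM per kb, whereas the means of Cd48 and Cd34 lay above it. Cd34, Cd48 and Ly6a were lowest in replicate 1, and Procr and Slamf1 highest there. Of the 40 present antigens, 22 were highest and 13 lowest in replicate 1, against 38.3% and 32.9% of all present genes, and the list summed to 5966, 6092 and 5693 CPM.

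The antigens used to remove mature cells were mostly low, as 6 of 24 were present. Itgam (CD11b) was at 21.2, 30.6 and 24.5 CPM (5.45 ± 1.02 per kb) and Klrb1c (NK1.1) at 27.7, 10.4 and 13.01 CPM (7.96 ± 4.35 per kb). The T cell antigens Cd3e, Cd4 and Cd8a were under 1 CPM, and Ly6g and Cd8b1 were not detected at this depth. The list is thus low as a whole, and no member had a mean of 10 CPM per kb.

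Of 300 listed transcription factors, 189 (63.0%) were present. Factors known to keep HSC were nearly complete, with 23 of 24 present, and Sox17, a factor of fetal HSC, at 0 counts in every library. Lmo2, an adaptor that links TAL1 and GATA factors, was highest at 789.6, 679 and 675 CPM (432 ± 39.3 per kb). Myb, needed for progenitor expansion, was at 444, 466 and 524 CPM (141 ± 12.2 per kb). Mycn, a MYC relative of stem cells, was at 338, 249 and 253 CPM (105 ± 18.8 per kb). Lmo2 stood above all other listed factors in every library. Fli1 was at 80.6 ± 6.77, Ldb1, which bridges LMO2 complexes, at 65.1 ± 1.79 and Erg at 63.4 ± 10.1 CPM per kb. Runx1, the factor of definitive blood formation, was lower at 159.9, 139 and 139 CPM (30.8 ± 2.54 per kb), as was Tal1, whose control elements drive the activator in these mice, at 94.1, 89.6 and 86.1 CPM. Of the 23 present regulators, 16 were highest in replicate 1, against 38.3% of all present genes.

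Gata2 stood above its relatives, with Gata1, the erythroid and megakaryocytic factor, at 27.3, 40.6 and 34.2 CPM (17.9 ± 3.48 per kb) and Gata3, known from T cells and also from HSC, at 49.9, 42.1 and 40.2 CPM (13.7 ± 1.603 per kb). Gata4, Gata5 and Gata6, of other tissues, were not detected at this depth. Runx3 (27.5 ± 5.18) was close to Runx1 per kb, with Runx2 lower at 10.1 ± 1.103, and Cbfb, their common partner, was at 82.1 ± 4.77 CPM per kb.

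Present HOX genes came from the A and B clusters only, among 39 measured. Of 12 present, Hoxa9, a leukaemia-linked factor of progenitors, was highest at 69.3, 52.6 and 71.1 CPM (19.9 ± 3.16 per kb). Hoxa10 was at 18.3 ± 3.59, Hoxb2 at 15.1 ± 5.395 and Hoxa7 at 12.7 ± 0.879 CPM per kb. Hoxb4, known for expanding HSC when forced, was at 13.5, 10.8 and 11.9 CPM (4.71 ± 0.526 per kb), and Hoxb5, a marker of long-term HSC, at 14.3, 8.24 and 10.5 CPM (5.82 ± 1.63 per kb). The summed level of the list was 260.3 CPM in replicate 1, 189 in replicate 2 and 225 in replicate 3, and 9 of the 12 were lowest in replicate 2, against 31.6% of all present genes. All listed HOXD genes were not detected at this depth.

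ETS factors were present in 17 of 26 cases. The median of the present members was 13.9 CPM per kb, against 11.7 for all ranked genes, which are present genes only. Over all 26 members the median was 8.19. Elf1 was at 344, 371 and 363 CPM (92.5 ± 3.51 per kb), Etv6, an ETS repressor that HSC need, at 349, 355 and 346 CPM (63.1 ± 0.804 per kb), and Elk3 at 62.5 ± 1.66 CPM per kb. The ranges of Erg, Etv6 and Elk3 overlapped. Spi1 (PU.1), the driver of myeloid fate, was lower at 53.96, 61.9 and 57.5 CPM (28.4 ± 1.97 per kb). Gabpa, a widely used activator of housekeeping genes, was at 15.1 ± 0.579, and ETS factors of epithelia such as Ehf, Elf3 and Elf5 were not detected at this depth.

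**Figure D4:**
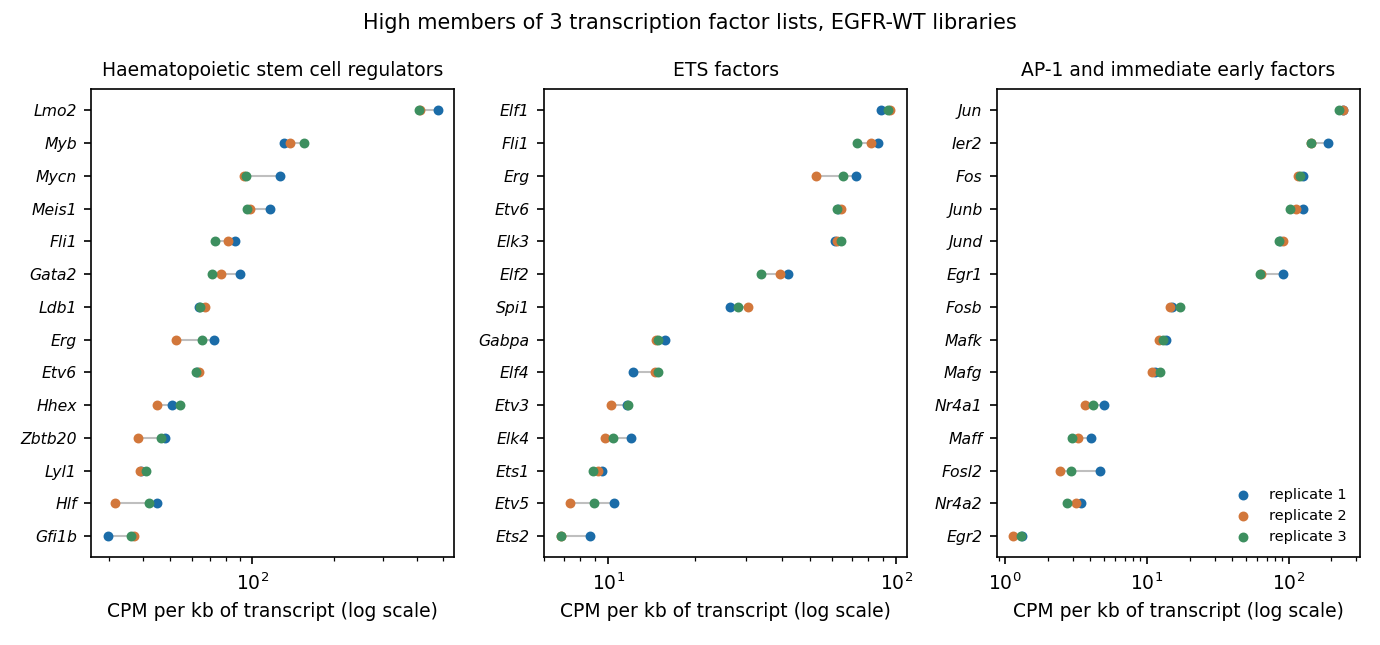
Each row is a gene and each point an EGFR-WT library, placed by its CPM per kb on a log axis, for 14 of the highest present members of the HSC regulators, the ETS factors and the AP-1 and immediate early factors. Lmo2 at 432, Elf1 at 92.5 and Jun at 237 CPM per kb lead their panels, and Hlf, Erg and Egr1 show wider gaps between libraries than Etv6.

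Some immediate early genes, which respond to stimuli within minutes, were high. On the AP-1 and immediate early list, the median of the present members was 14.3 CPM per kb, against 11.7 for all ranked genes. Over all 19 members, present or not, it was 4.28. Jun was at 765, 774 and 723 CPM (237 ± 8.46 per kb), Ier2 at 286, 219 and 217 CPM (158 ± 25.8 per kb), Fos at 268, 246 and 253 CPM (121 ± 5.45 per kb) and Egr1 at 276, 195 and 191 CPM (72.6 ± 15.8 per kb). Of 19 listed, 14 were present, while Atf3, Egr3 and Nr4a3 were each under 1 CPM. KLF factors, with 14 of 17 present, were led by Klf10 at 239, 166 and 131 CPM (68.9 ± 21.1 per kb), and Klf1, the erythroid member, was at 9.804, 18.4 and 19.9 CPM.

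Myc, a driver of growth, was at 358, 416 and 436 CPM (194 ± 19.6 per kb), above Mycn per kb in each library, and Mycl was under 1 CPM. Stat3 (61.2 ± 3.096), Irf2 (54.3 ± 2.38), Irf1 (44.6 ± 5.69) and the cytokine signal transducers Stat5a (30.9 ± 2.09) and Stat5b (27.8 ± 2.29) were on the C/EBP, IRF and STAT list, of which 20 of 22 were present. Of the E proteins and their inhibitors, Tcf3 was at 46.2 ± 2.78 and Tcf4 at 24.7 ± 1.82 CPM per kb. Id2 was the 1 inhibitor present at 18.7, 18.4 and 16.05 CPM, and Id1, Id3 and Id4 lay near or under 1 CPM. Foxo3, a factor of stem cell quiescence, was at 96.2, 85.7 and 85.7 CPM (30.9 ± 2.096 per kb).

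Nuclear receptors, with 28 of 48 present, were led by Nr1h2 (33.1 ± 2.13) and Rxrb (28.2 ± 1.99 CPM per kb), and Nr3c1, the glucocorticoid receptor, was at 104, 96.2 and 102 CPM. Esr1, the oestrogen receptor, was present at 19.8, 21.8 and 23.3 CPM (6.11 ± 0.489 per kb). Among factors of other tissues, 6 of 40 were present, and Sox4, active in many progenitors, was the only member of that list above 5 CPM per kb at 279, 299 and 344 CPM (64.1 ± 6.95 per kb). Mef2c, which favours lymphoid over myeloid fate, was at 529.8, 412 and 415 CPM (166 ± 24.6 per kb), Ikzf1 (Ikaros) at 46.2 ± 4.46 and Bcl11a at 53.5 ± 6.77. Nfe2, of megakaryocytes, was at 249, 189 and 200.3 CPM (119 ± 17.9 per kb). Xbp1, of the unfolded protein response and of plasma cells, was at 152, 193 and 223 CPM (88.9 ± 16.7 per kb), lowest in replicate 1 like the immunoglobulins.

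Genes of the lineage lists were present in part, 117 of 212 (55.2%), against 57.8% of all protein-coding genes. That total includes the stromal and bone, endothelial and non-blood lists, of which 5 of 17, 10 of 15 and 4 of 20 were present. The megakaryocyte and platelet list had 17 of 20 present, and the median of its present members was 34.1 CPM per kb, against 11.7 for all ranked genes. Pf4, platelet factor 4, was at 191, 364 and 177 CPM (415 ± 178 per kb). Mmrn1, a platelet granule protein, was at 619, 505 and 374 CPM (111.6 ± 27.3 per kb). Vwf, which marks platelet-biased HSC, was at 245, 194 and 141 CPM (21.9 ± 5.86 per kb), Selp, P-selectin, at 156, 111.5 and 83.5 CPM (34.1 ± 10.7 per kb) and Gp9, of the platelet von Willebrand receptor, at 54.5 ± 12.2 CPM per kb. Replicate 2 was far above the others for Pf4 and Itga2b, and replicate 1 was highest for Mmrn1, Vwf and Selp. Of the 17 present, 11 were highest in replicate 2 and 6 in replicate 1, against 30.9% and 38.3% of all present genes. In replicate 3, 13 were lowest, against 35.4% of all present genes. Tubb1 and Clec1b were between 1 and 2 CPM on average, and Gp6, the platelet collagen receptor, was not detected at this depth.

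Erythroid genes had 18 of 21 present, but most were low. Beside Car2, Car1 was at 173, 315 and 284 CPM (217 ± 63.3 per kb) and Aqp1 at 27.8 ± 5.18. The globin Hbb-bt was at 20.03, 9.93 and 22.6 CPM and Hbb-bs at 4.21, 1.95 and 6.596 CPM. Alas2, an erythroid enzyme of haem synthesis, had a mean of 0.235 CPM, and Slc4a1, the anion exchanger of red cells, was not detected at this depth. Of the 18 present, 12 were highest in replicate 3 and 10 were lowest in replicate 1, against 30.8% and 32.9% of all present genes.

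**Figure D5:**
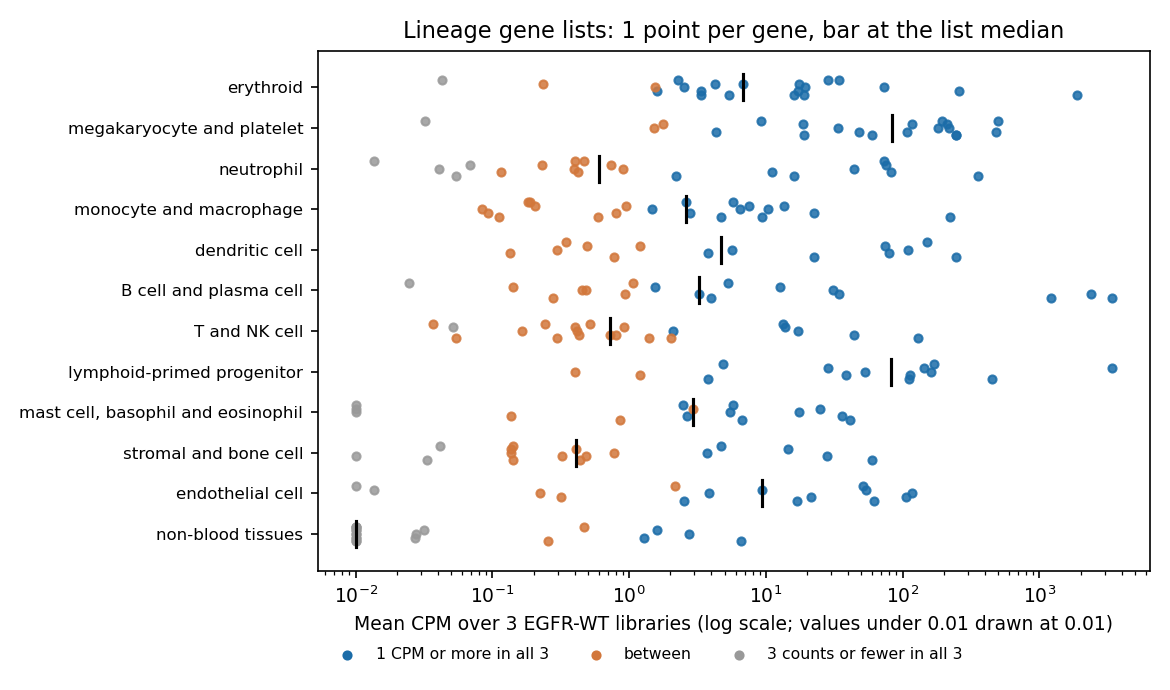
Each point is a gene of a lineage list, placed by its mean CPM over the 3 EGFR-WT libraries on a log axis, and each bar is the median of the list. Blue genes were present, orange genes lay between, and grey genes had 3 counts or fewer in every library. The megakaryocyte list (17 of 20 present) and the lymphoid-primed list (12 of 14) lie farthest right, and the non-blood list (4 of 20) lies farthest left.

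Neutrophil genes split by the stage at which they are known to appear. The primary granule genes of promyelocytes were present, with Mpo, myeloperoxidase, at 275, 447 and 341 CPM (129 ± 31.7 per kb), Prtn3, proteinase 3, at 95.4, 81.5 and 71.02 CPM (80.6 ± 11.9 per kb), Ctsg, cathepsin G, at 36.4, 54.7 and 41.9 CPM and Elane, neutrophil elastase, at 14.8, 22.1 and 11.6 CPM. The later genes S100a8, S100a9, Ngp and Ltf had means under 1 CPM, and Camp, Lcn2, Mmp9 and Ly6g were not detected at this depth. Mpo, Ctsg and Elane were highest in replicate 2, and Prtn3 in replicate 1. In the monocyte list, 12 of 21 were present. Lyz2, lysozyme, was at 234, 221 and 209 CPM (168 ± 9.45 per kb), and the macrophage genes C1qa, C1qb, C1qc and Adgre1 had means under 0.2 CPM.

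Of dendritic cell genes, 8 of 14 were present, led by genes that other antigen-presenting cells share. Cd74, the invariant chain of MHC class II, was at 105, 344 and 281 CPM (185 ± 94.2 per kb). H2-Ab1 was at 64.8, 171 and 91.98 CPM and H2-Aa at 48.95, 119.7 and 53.3 CPM. All 3 class II genes were highest in replicate 2 and lowest in replicate 1, so their order differed from that of Ighm, Igkc and Jchain, which were highest in replicate 3. Siglech, Xcr1 and Itgax, more specific to dendritic cells, had means under 1 CPM.

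Lymphoid-primed progenitor genes had 12 of 14 present, while genes of mature T and NK cells had 6 of 21. Ighm, lowest in replicate 1, was a member of the lymphoid-primed list, whose summed level was 1914, 5602 and 6492 CPM. Of the 12 present, 8 were highest in replicate 3, against 30.8% of all present genes. Dntt, the terminal transferase that adds bases at V(D)J joints, was at 169, 129 and 182 CPM (78.6 ± 13.6 per kb) and Il12a at 32.2, 40.4 and 42.1 CPM (29.7 ± 4.13 per kb). Rag1, the recombinase, was under 1 CPM in the mean. Nkg7, of cytotoxic granules, was at 104, 151 and 135 CPM (148 ± 27.3 per kb), the highest of the T and NK list.

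Mast cell, basophil and eosinophil genes had 9 of 15 present. Prg2, a granule protein of eosinophils, was at 26.5, 64.4 and 32.5 CPM, Prss34, a basophil protease, at 31.9, 58.003 and 17.3 CPM, Mcpt8, another basophil protease, at 18.4, 20.3 and 13.8 CPM and Cpa3, carboxypeptidase A3, at 17.1, 29.9 and 28.1 CPM. All 9 were highest in replicate 2, against 30.9% of all present genes, and the summed level there was 206 CPM, against 117 in replicate 1 and 117 in replicate 3. The mast cell proteases Mcpt4, Tpsb2 and Tpsab1 were not detected at this depth.

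Endothelial genes that stem cells are known to share were present, 10 of 15 in all. Egfl7, which hosts a microRNA of stem cells and vessels, was at 67.6, 53.1 and 64.7 CPM (45.4 ± 5.65 per kb) and Pecam1 at 16.6 ± 1.36 CPM per kb. The markers Cdh5 and Sox17 were not detected at this depth, and Flt1 and Stab2 were under 1 CPM in the mean. Of stromal and bone genes, 5 of 17 were present, with Col1a2 at 13.8, 15.2 and 14.2 CPM and Col1a1 at 0.167, 0.722 and 0.0819 CPM. Of genes of other tissues, 4 of 20 were present, with Epcam highest at 8.27, 5.08 and 6.26 CPM, and albumin (Alb), insulin (Ins2) and surfactant protein C (Sftpc) were not detected at this depth.

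Genes known to be enriched in HSC were complete, and most were highest in replicate 1. This list, like the others, was chosen with earlier results of these data known, so its counts describe the list and are not independent evidence. All 32 were present, and the median of the list was 25.3 CPM per kb. Txnip, an inhibitor of thioredoxin that restrains growth, was at 953, 726 and 572 CPM (267 ± 68.2 per kb). Apoe, apolipoprotein E, was at 411, 441 and 357 CPM (307 ± 32.4 per kb). Pdzk1ip1 was at 166, 119 and 94.97 CPM (143 ± 40.6 per kb). Clu, clusterin, was at 121, 76.2 and 44.2 CPM, Sult1a1, a sulfotransferase, at 127, 81.3 and 63.5 CPM, and Gda, guanine deaminase, at 78.3, 36.2 and 34.8 CPM. Of the 32 genes, 29 were highest in replicate 1, against 38.3% of all present genes, and none was lowest there, against 32.9% of all present genes. The lowest library was replicate 3 for 21 and replicate 2 for 11. The summed level was 5438 CPM in replicate 1, 4325 in replicate 2 and 3761 in replicate 3. The median CV of the list was 25.2%, above the 8.18% of all present genes.

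Cell division genes were all present and went the other way between the libraries. Mcm6, a subunit of the replicative helicase, was at 503, 563 and 544 CPM (148 ± 8.404 per kb), Pcna, the sliding clamp of DNA polymerases, at 149, 142 and 151 CPM (96.9 ± 3.04 per kb) and Top2a, a topoisomerase of dividing cells, at 247, 262 and 276 CPM (50.1 ± 2.7003 per kb). Of 28 genes, 21 were lowest in replicate 1, against 32.9% of all present genes, but the differences were small, with summed levels of 3201, 3474 and 3457 CPM and a median CV of 5.97%. Replicate 1 thus had the lowest summed level of division and antibody genes and the highest of HSC genes. How far this reflects the make-up of the sorted cells was not tested.

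Within the cell cycle, members of a family were unequal. Among D cyclins, Ccnd3 (77.4 ± 3.21) and Ccnd2 (63.3 ± 11.3) overlapped per kb, and Ccnd1 was lower at 10.5 ± 3.24. Cdk4 stood at 141 ± 3.11 and Cdk6 at 46.7 ± 7.12 CPM per kb. Among inhibitors, Cdkn1c (p57), a quiescence gene of HSC, was at 37.5, 19.7 and 25.3 CPM (14.5 ± 4.81 per kb), Cdkn1b (p27) at 13.7 ± 0.705 and Cdkn1a (p21) at 7.34 ± 1.17. Cdkn2d and Cdkn2c were at 42.3 ± 4.197 and 34.1 ± 2.97, whereas Cdkn2a and Cdkn2b, tied to senescence, were not detected at this depth. The ranges of Cdkn1c and Cdkn1b overlapped.

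A single member took most of the level in many enzyme families. Pkm made up 99.4% of pyruvate kinase per kb, Aldoa 97.9% of aldolase, Aldh1a1 nearly all of retinaldehyde dehydrogenase, Sod1 93.9% of superoxide dismutase, Gpx1 89.8% of glutathione peroxidase, Ldha 83.1% of lactate dehydrogenase and Hk1 80.2% of hexokinase. Glucose transporters were led by Slc2a3 at 179.7, 155 and 155 CPM (41.3 ± 3.58 per kb), and Slc2a1, the transporter common to most cells, was at 26.4, 22.7 and 26.5 CPM (7.73 ± 0.665 per kb). Msi2, an RNA-binding protein of stem cells, was at 350.4, 265 and 300.4 CPM, and its relative Msi1 was not detected at this depth. The fetal regulators Lin28a and Lin28b were not present.

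In further families the leading member took from 28.8% of the summed level per kb (efflux transporters) to 66.9% (DNA methyltransferases). Dnmt1, the maintenance DNA methyltransferase, was at 49.7 ± 5.79 CPM per kb, and the de novo enzymes Dnmt3b and Dnmt3a at 13.3 ± 0.685 and 11.3 ± 0.383. Tet3 was at 6.76 ± 0.416, above Tet1 at 4.102 ± 0.5695 and Tet2 at 3.43 ± 0.169, whose ranges overlapped. Of the JAK kinases that serve cytokine receptors, Jak1 was at 76.9 ± 2.63, Jak3 at 35.5 ± 2.19 and Jak2 at 22.5 ± 1.44 CPM per kb. Among class I PI3-kinase subunits, the blood-specific Pik3cg (36.1 ± 2.19) and Pik3cd (22.5 ± 2.41) stood above Pik3ca (8.07 ± 0.208) and Pik3cb (2.98 ± 0.307). Mcl1, a survival factor of HSC, was at 92.2 ± 5.71 and Bcl2 at 28.1 ± 1.98. The efflux transporter Abcg2, which gives HSC their dye exclusion, was at 93.1, 75.8 and 72.9 CPM (20.4 ± 2.77 per kb), and its range overlapped that of Abcg3 at 20.1 ± 4.79.

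Of 63 secreted ligands, 32 were present. Mif, macrophage migration inhibitory factor, was highest at 248, 280.1 and 251 CPM (478 ± 32.5 per kb). Angpt1, the ligand of Tek, was at 538, 469 and 491 CPM (117 ± 8.199 per kb), above Tek itself per kb in every library. Tgfb1 was at 112.3, 156 and 125 CPM (60.3 ± 10.3 per kb), and the cytokines Thpo, Epo, Il3 and Csf3 were not detected at this depth. Kitl, the ligand of Kit, was under 1 CPM in the mean. The libraries thus held transcripts of Kit and little of its ligand.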

How the data were processed

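Bulk RNA of sorted bone marrow CD34- KSL cells was read in 3 EGFR-WT libraries. Per the labels, 10 ng of RNA was primed with oligo(dT) and copied with SMART-Seq V4, libraries were made with Nextera XT, which does not mark strand, and reads were single and of 75 bases. The deposited table of the authors holds unscaled estimated counts by gene symbol, and 79.4% of values were whole. Per the submitters' processing notes, DRAGEN, DESeq2 1.40.2, R 4.3.1 and the build mm39 were used in an order not stated. Annotation and counting settings: not given in the sources used here. Libraries were grouped by their label, and the 3 EGFR-DN columns were not used here.

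CPM was computed by the library total of 24428225 to 36032504 counts. With 1 group no test was made. Transcript lengths were medians over GENCODE M21 (GRCm38), matched by symbol for 19590 protein-coding genes. That build is earlier than mm39. Mitochondrial, rRNA-like, immunoglobulin and pseudogene symbols were not ranked per kb. The rRNA-like symbols were mt-Rnr1, mt-Rnr2, Rn18s-rs5, Lars2, Gm15564, Gm26917, Gm46178 and Gm53756. Python 3.11.15, pandas 2.3.3, edgeR 4.0.16 and DESeq2 1.42.0 in R 4.3.3 were used. Estimated counts were rounded for edgeR and DESeq2. The spread estimate was tested on simulated data.

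The 39 gene lists and 42 families held 1031 genes, of which 1 was not in the table. Members and lists were chosen with earlier results of these data known. Genes were named by rule. The rule took the 6 markers, Egfr, the 25 highest genes by CPM and by CPM per kb, up to 8 of the highest present members of each list, family members, members that define a cell type and were not detected, and 10 genes with the widest spread. A few genes that the rule takes are not reported here and not drawn by name. Limits of 3 counts cover counting error only, since PCR copies are not independent molecules. The labels do not say whether replicates are separate animals, so the spread may be technical. Alternatives were TMM and DESeq2 scaling, other minimum levels, another pseudocount, other lengths, removal of abundant classes and each replicate left out.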

Additional observations from a re-analysis of the deposited data

How the results depend on the processing

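Counts of present genes and of present surface, transcription factor and lineage genes stayed within 1.5 times the values given under every alternative tried. Scaling by TMM or DESeq2 size factors moved none of the 39 list counts and none of the 6 marker levels beyond that limit or the spread. With a minimum of 0.5 CPM the median CV was 8.98%, and with 5 CPM it was 6.79%, the lowest Spearman's rho 0.985 and the edgeR spread 0.108, since fewer low genes enter. At 0.5 CPM, 11 chemokine receptors were present. At 5 CPM, 12 list counts fell by more than 1.5 times, with 15 receptor tyrosine kinases and 10 erythroid genes left. Leaving out each replicate in turn gave a median CV of 6.14% to 7.20% over the remaining 2 libraries, a lowest r of 0.987 to 0.991 and a lowest rho of 0.988 to 0.992, highest without replicate 1. On CPM per kb, 463 genes held 50% of the total. Without the abundant classes, levels of Kit (988 CPM), Meis1, Hlf and Gata2 were higher by construction of the total. With the longest transcript or the union of exons, 23 and 22 of the first 25 genes per kb were shared. No paired analysis was possible because the report uses 1 group and no test. Depth limits what can be said of genes near 3 counts per library.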

Other observations

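Outside the immunoglobulins, some of the genes with a wide spread between the 3 libraries were picked after their values were seen, and others differed as much. Slc15a2, a peptide transporter, was at 16.7, 1.75 and 32.3 CPM. Rarb, a retinoic acid receptor, was at 21.9, 8.71 and 6.51 CPM, and Cyp26b1, which breaks down retinoic acid, at 32.4, 11.7 and 10.1 CPM. Both were highest in replicate 1. Slpi, a protease inhibitor, was at 19.4, 107 and 68.8 CPM, lowest in replicate 1. Slc17a8, a vesicular glutamate transporter, was at 21.3, 5.69 and 6.22 CPM, Wdfy1 at 65.9, 24.2 and 21.9 CPM and Kcnh6, a potassium channel, at 248, 88.1 and 175 CPM, all highest in replicate 1. Ctss, cathepsin S, was at 12.7, 31.9 and 41.2 CPM, lowest in replicate 1. Cd38, an ectoenzyme on the surface of mouse HSC, was at 40.8, 21.9 and 15.5 CPM, and Plk2, a polo-like kinase, at 46.5, 20.8 and 18.5 CPM, both highest in replicate 1. Cd52 was at 23.2, 44.5 and 56.1 CPM, lowest in replicate 1. Of genes with a mean of at least 10 CPM, 53 were more than 2-fold below both other libraries in replicate 1, of which 14 were not immunoglobulin genes, and 8 were more than 2-fold above both.

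The labels give no sex. Xist was at 893, 631 and 786 CPM, and the Y-linked genes Ddx3y, Uty, Kdm5d and Eif2s3y were each under 0.2 CPM in all 3 libraries (genes chosen after their values were seen). Myl10, a myosin light chain, stood at rank 47 of the ranked protein-coding genes with 356, 340.0 and 341 CPM (534 ± 14.4 per kb), a level that varied by 2.6997% (CV) over the libraries, and it was on none of the lists.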
